A study of Mus musculus with 6 samples.

Results

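The Ms4a genes encode small membrane proteins that cross the membrane several times, and most of them lie side by side in 1 cluster of the mouse genome. The 8 genes described here (Ms4a1, Ms4a4a, Ms4a4b, Ms4a4c, Ms4a6b, Ms4a6c, Ms4a6d and Ms4a7) were chosen by name as members of this family, out of 32287 features in the gene matrix and 19 symbols that start with Ms4a. Ms4a1 encodes CD20, the classic surface protein of B cells. MS4A4B is known from T cells and natural killer (NK) cells, and Ms4a7 is widely used as a marker of macrophages. For Ms4a4a, which is described on macrophages, and for the Ms4a6 genes and Ms4a4c, which are described on monocytes and macrophages, the functions are less well known.

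The cells came from the inguinal lymph nodes of 4 CD169Tom mice, in which Cre under control of the Siglec1 gene (encoding CD169) switches on the red reporter tdTomato (TOM) for good. All 4 mice carried the Cd169-Cre allele and the tdTomato allele on a C57BL/6J background and were over 6 weeks old. Of these mice 2 were unimmunized, while 2 had been immunized 9 days earlier with hen egg lysozyme, the antigen named by the submitters. The authors' methods describe this protein as a conjugate with an ovalbumin peptide, given in an adjuvant. Effects of antigen and adjuvant cannot be told apart here. The reporter also marks the progeny of any cell that had once turned on Siglec1, so it does not by itself mark macrophages. Cells were labelled with 1 hashtag antibody per mouse and sorted as live CD11b+TOM+ cells, and the cells of all mice were pooled and run as 2 captures with CITE-seq, which counts transcripts by unique molecular identifiers (UMIs) and antibodies by barcodes. The authors classed the B cells and NKT cells that they found in this sort as contaminating.

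Of 18662 barcodes, 12139 were kept as cells of 1 mouse, with 2828 and 537 cells in unimmunized mice 1 and 2 and 4052 and 4722 in immunized mice 1 and 2. Median depth was 5877, 6280, 9674 and 12728 UMIs per cell in the same order, higher in both immunized mice than in both unimmunized ones. Marker genes, none of them an Ms4a gene, placed 6654 cells in 15 gated types and left 5485 ungated, which was 35.6% to 53.4% of the cells of a mouse. The markers of the B cell-like, γδ T cell-like, NK cell-like and interferon-high gates were all highest in their own type. For the C1q-high macrophage-like gate, 0 of 4 markers were highest in it, since the tingible body macrophage (TBM)-like gate exceeded it. In the TBM-like gate itself 5 of 8 markers were highest, with Ccl12, Ccl7 and Tmem37 as exceptions. In the αβ T cell-like gate 7 of 9 were, with Cd4 and Cd8a as exceptions. Further exceptions were Chil3 in the classical monocyte-like, Spn in the nonclassical monocyte-like and Flt3 in the type 2/monocyte-derived dendritic cell (DC)-like gate, with 5 of 6 markers highest in each. Counts of each type were summed per mouse into 52 libraries of 33649 to 12466794 UMIs, and levels are given as CPM, the UMIs of a gene per 1000000 UMIs of its library. The 2 mice of a condition are separate animals, and libraries of 1 mouse share that animal. In all of these data, fewer transcripts per cell and fewer expressing cells within a gate cannot be told apart from the sums alone.

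All 8 members passed the filter on low counts, with totals from 685 UMIs for the least abundant to 123262 for the most abundant. Of the 11 other Ms4a symbols only Ms4a8a passed, and the other 10 had at most 61 UMIs each. The members lie within 355 kb of chromosome 19 (GRCm38), from Ms4a1 at chr19:11249675-11266241 to Ms4a6d at chr19:11586604-11604849. In that stretch Ms4a1, Ms4a7 and Ms4a6d are on the minus strand, and Ms4a4a, Ms4a4c, Ms4a4b, Ms4a6c and Ms4a6b follow each other on the plus strand. All 8 are annotated as protein-coding.

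The sequences just before the start sites of 4 plus-strand neighbours are shown because these genes form pairs of close relatives, of which Ms4a4b and Ms4a4c were highest in different types, while Ms4a6b and Ms4a6c were highest in the same type and differed in their ratio in T cell-like cells (below). They are the 250 bases before the start site in RefSeq (GRCm38.p6), all on the plus strand, at chr19:11443308-11443557 for Ms4a4b, chr19:11407411-11407660 for Ms4a4c, chr19:11518309-11518558 for Ms4a6b and chr19:11469118-11469367 for Ms4a6c. The annotated genes begin further upstream for Ms4a4c, at 11404770, and for Ms4a6b, at 11516512. Their stretches thus lie inside the annotated genes, and the bases before the upstream starts were not examined. Capitals mark runs of at least 12 bases that also occur in the other gene of the pair.
Ms4a4b: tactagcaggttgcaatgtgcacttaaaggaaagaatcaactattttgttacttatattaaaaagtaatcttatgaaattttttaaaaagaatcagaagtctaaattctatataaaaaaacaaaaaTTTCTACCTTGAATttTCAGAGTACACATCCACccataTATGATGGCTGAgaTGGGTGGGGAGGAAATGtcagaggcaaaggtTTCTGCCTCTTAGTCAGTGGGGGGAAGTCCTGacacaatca
Ms4a4c: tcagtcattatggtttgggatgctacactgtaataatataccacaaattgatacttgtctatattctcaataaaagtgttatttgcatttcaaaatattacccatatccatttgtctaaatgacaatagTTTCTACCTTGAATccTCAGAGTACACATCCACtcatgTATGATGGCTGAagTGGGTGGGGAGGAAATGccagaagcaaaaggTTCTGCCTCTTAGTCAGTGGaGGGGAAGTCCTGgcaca
Ms4a6b: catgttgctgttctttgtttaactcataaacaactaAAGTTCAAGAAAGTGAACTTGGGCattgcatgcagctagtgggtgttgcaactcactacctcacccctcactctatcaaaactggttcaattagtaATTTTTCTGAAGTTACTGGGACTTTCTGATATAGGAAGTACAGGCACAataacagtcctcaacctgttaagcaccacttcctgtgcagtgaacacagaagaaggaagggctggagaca
Ms4a6c: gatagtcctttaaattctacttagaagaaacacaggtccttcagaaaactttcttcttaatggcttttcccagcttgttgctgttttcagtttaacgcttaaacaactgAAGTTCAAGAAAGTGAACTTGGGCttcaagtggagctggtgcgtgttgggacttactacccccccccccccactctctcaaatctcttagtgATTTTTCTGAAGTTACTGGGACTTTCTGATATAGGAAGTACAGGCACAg

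In the Ms4a4b and Ms4a4c pair, 92 of 250 bases (36.8%) fell in such runs, the longest being 20 bases. The last stretch of capitals in Ms4a4b holds 2 runs that abut, which an extra base parts in Ms4a4c. Among 32851 promoters, a run of 20 bases from Ms4a4b was found in 2 others, those of Ms4a4c and Gm8369. Ms4a6b and Ms4a6c shared 72 bases (28.8%), with a longest run of 48 bases that no other promoter in the set shared with either gene. The letters GAGGAA hold the shorter GGAA core bound by ETS factors such as PU.1. They occurred once in Ms4a4b and once in Ms4a4c, read on both strands, and in none of the other member promoters in the set. This motif of 6 letters was present in 23.3% of all 32851 promoters. The GGAA core alone was not counted, and it also stands in the longest run shared by Ms4a6b and Ms4a6c. Neither the core of interferon-stimulated response elements (GAAA, any 2 bases, GAAA), found in 2.98% of promoters, nor TTCNNNGAA, the form of STAT sites, found in 7.02%, occurred in the 250 bases of any of the 6 members with an entry. The relatedness extends to the transcripts. In the last 500 bases of the longest transcript, which a 3′ assay reads, 11.8% of 50-base words of Ms4a4c and 10.4% of those of Ms4a6c also occurred in another Ms4a transcript, against 0% for the other 6 members, so a part of the reads of these genes may be ambiguous.

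Ms4a1, Ms4a4b and Ms4a7 were each highest in a type of their own, whereas Ms4a4c, Ms4a6b, Ms4a6c and Ms4a6d were highest in the same type. In the 104 tests of a member in 1 type against the mean of the others, each weighted equally (edgeR's quasi-likelihood test, Benjamini-Hochberg adjusted over 11225 genes), 31 were higher and 25 lower, against 15.2% and 6.21% of all tests of all genes in the same directions. The interferon-high monocyte-derived-like type held most calls, with 7 of 8 members higher where 16.1% of all genes were. Nonclassical monocyte-like cells had 6 members higher (16.8% of all genes), classical monocyte-like cells 5 (12.5%) and C1q-high macrophage-like cells 5 (10.7%). In TBM-like cells, compared within the immunized mice, 3 members were higher (10.8%) and 1 lower (1.84%), and in C1q-high cells 1 was lower (1.75%). In the lymphoid types 1 member was higher in each: Ms4a1 in B cell-like cells (15.7% of all genes), and Ms4a4b in NK cell-like (16.8%), αβ T cell-like (25.5%) and γδ T cell-like cells (13.7%). Lower were 3 members in B cell-like (11.2%), 4 in NK cell-like (8.03%), 3 in αβ T cell-like (11.6%) and 5 in γδ T cell-like cells (11.4%), all of them myeloid members. Migratory DC-like cells had 2 members higher (21.4%) and 4 lower (8.8%), and cDC1-like cells 3 lower (5.27%). MSM-like cells had Ms4a7 higher (14.1%) and Ms4a4c lower (10.2%) and type 2/monocyte-derived DC-like cells had Ms4a6c higher (13.9%) and Ms4a4b lower (2.93%).

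Ms4a1 was found almost wholly in B cell-like cells, the population its protein is known for. Its level there was 1401 and 1706 CPM in unimmunized mice 1 and 2, and 1462 and 892 CPM in immunized mice 1 and 2. All 4 libraries were far above every library of the other types, and the conditions overlapped. The highest other library reached 27.1 CPM, so the lowest B cell-like library was 33.0-fold above it. The fitted difference from the other types was 10.61 ± 0.20 (log2, SE; edgeR adjusted p = 5.39e-30), a value that depends on the prior count where other libraries hold no UMI. After each cell was thinned to 1000 UMIs, 66.8% ± 9.04 (SD, n = 4) of B cell-like cells held an Ms4a1 UMI, against 0.220% of αβ T cell-like cells.

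Ms4a1 was also called higher in migratory dendritic cell (DC)-like cells, by 2.33 ± 0.81 on the log2 scale (adjusted p = 0.0267). This rested on 1 library and almost on 1 cell. Unimmunized mouse 1 had 25 Ms4a1 UMIs in 79 such cells, and 24 of them were in a single cell. The other 3 libraries held 0, 4 and 0 UMIs. In that same library all 8 B cell markers were detected, summing to 107 CPM, against 0 to 32.0 CPM in the other 3. Without unimmunized mouse 1 the fitted difference was −1.20.

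Ms4a4b was highest in NK cell-like and T cell-like cells. In NK cell-like cells it reached 1678 and 1713 CPM in the unimmunized and 2092 and 2369 CPM in the immunized mice. All 4 libraries were above every library of any other type. In αβ T cell-like cells it was 371 and 635 CPM in unimmunized and 893 and 1441 CPM in immunized mice. In γδ T cell-like cells it was 132, 313, 197 and 13.7 CPM in the same order, the last a library of 10 cells. NK cell-like cells exceeded αβ T cell-like cells by 1.34 ± 0.28 (log2, SE; adjusted p = 6.65e-04; 10.7% of genes were called in this pair), and αβ exceeded γδ T cell-like cells by 2.43 ± 0.34 (adjusted p = 1.14e-05; 1.53% of genes). The step from γδ T cell-like to the next type, interferon-high cells, was 0.32 ± 0.36 and was not called. Interferon-high cells, at a mean of 94.4 CPM, were themselves called higher than the mean of the other types, by 0.88 ± 0.24 (adjusted p = 0.00691), while B cell-like cells held a mean of 34.0 CPM. At 1000 UMIs, 82.1% of NK cell-like cells held a UMI, and 4.66% of B cell-like cells, a type not known for this gene. The gene was lower than the mean of the other types in C1q-high, cDC1-like, type 2/monocyte-derived DC-like and migratory DC-like cells, down to −2.92 ± 0.43 in the last.

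Within the αβ T cell-like gate, Ms4a4b differed between cells with different T cell genes. Cells with a UMI of Lef1, a factor of naive and memory-like T cells, but none of Cxcr6, a receptor of effector and tissue-resident lymphocytes, held 1341, 1405, 1090 and 1872 CPM in unimmunized 1, unimmunized 2, immunized 1 and immunized 2. Cells with Cxcr6 but not Lef1 held 98.1, 242, 511 and 755 CPM. Cells with neither gene held 1255, 1283, 1047 and 1493 CPM in the same order of mice, and cells with both held 895, 885, 1607 and 1333 CPM. In unimmunized mouse 2 these last 2 groups had 4 cells each. In every mouse the cells with Cxcr6 alone were the lowest, with counting intervals that did not touch those of any other group. Of the gate, 299 of 420 cells of unimmunized mouse 1 had Cxcr6 alone, and 21 of 84 cells of immunized mouse 2. Cells with Cd4 and no Cd8b1 and cells with Cd8b1 and no Cd4 held 681 and 691 CPM in unimmunized mouse 1, 904 and 915 CPM in unimmunized mouse 2, and 1667 and 1760 CPM in immunized mouse 2, with overlapping counting intervals. In immunized mouse 1 they held 982 and 1247 CPM, with intervals that did not touch. These splits were chosen after the values had been seen and were not tested.

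**Figure D1:**
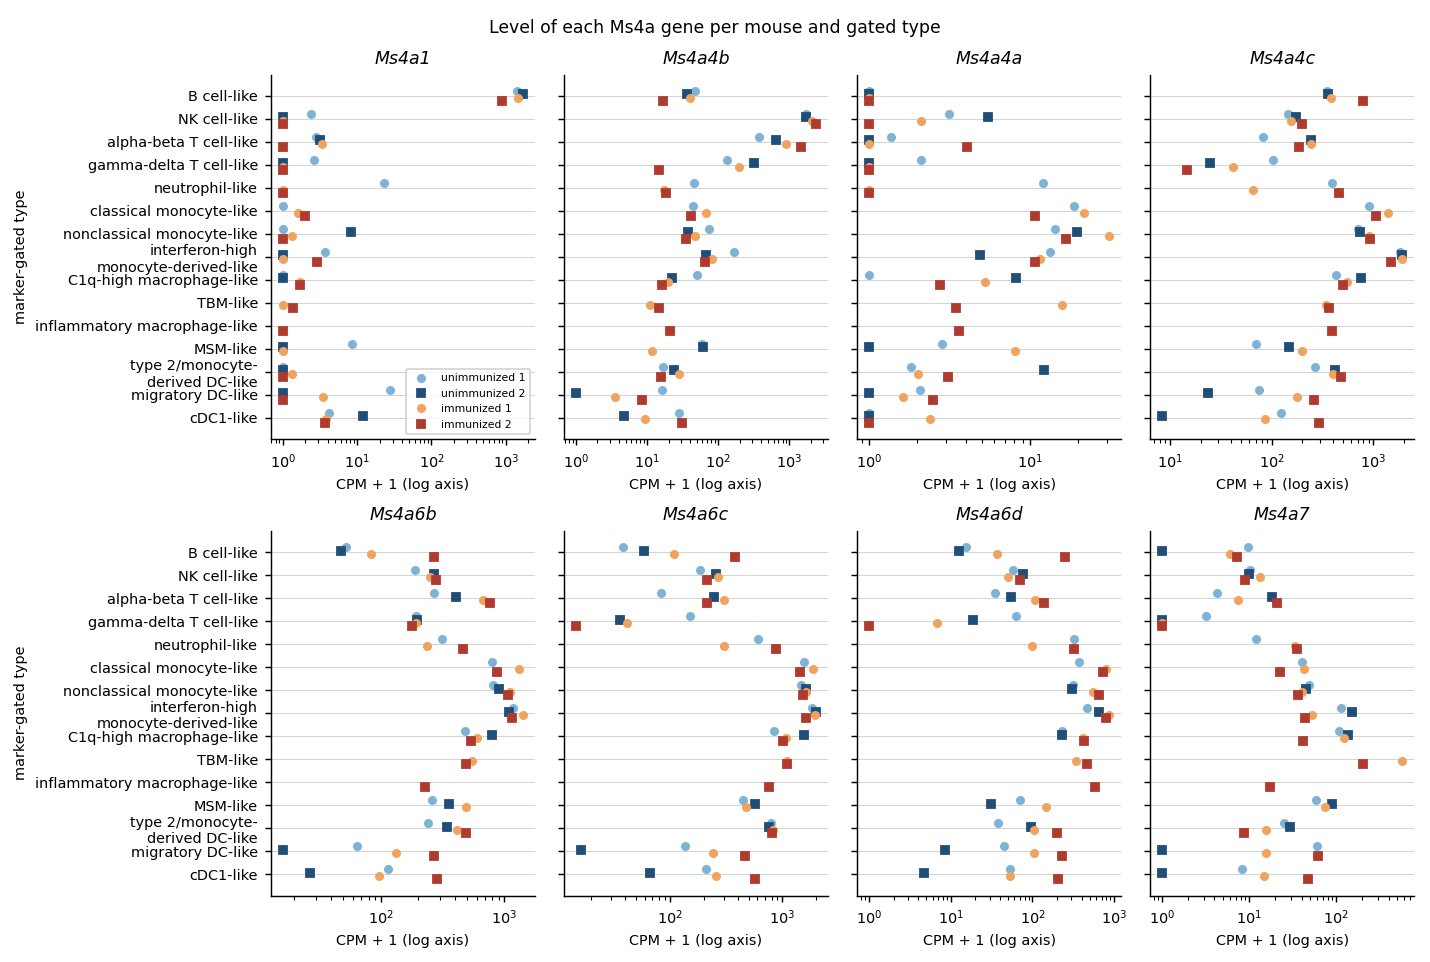
CPM + 1 (log axis) of each Ms4a gene in each mouse (color and shape) and gated type (rows); a point is 1 library of at least 10 cells. The NK cell-like libraries of Ms4a4b (1678 to 2369 CPM) and the B cell-like libraries of Ms4a1 (892 to 1706 CPM) lie apart from the other types.

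Among the members that were highest in a myeloid type, Ms4a4a was the rarest. In nonclassical monocyte-like cells it was at 13.3, 18.5, 30.1 and 15.6 CPM in unimmunized 1, unimmunized 2, immunized 1 and immunized 2, and in classical monocyte-like cells at 17.8 CPM in unimmunized mouse 1 and 20.8 and 9.73 CPM in the immunized mice. The libraries of both types overlapped. The gene was higher than in the other types in both (3.82 ± 0.48 and 3.67 ± 0.62, log2; adjusted p = 9.61e-08 and 3.23e-05) and in interferon-high cells (2.93 ± 0.57). No UMI was found in the 4 B cell-like libraries, where a count of 0 over their summed UMIs allows up to 1.39 CPM. Its fitted differences depend on the prior count, since other groups also hold no UMI. The 3 neighbouring steps in its order, nonclassical to classical to interferon-high to TBM-like cells, were not called. At 1000 UMIs 1.63% of nonclassical monocyte-like cells held a UMI, near the level of 1 UMI in a few cells, so counts of the gene are small throughout.

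Ms4a4c, Ms4a6b, Ms4a6c and Ms4a6d had one profile in common. All 4 were highest on average in interferon-high monocyte-derived-like cells, in all 4 mice, and were followed by classical and nonclassical monocyte-like cells. Ms4a6c there was at 1848, 1993, 1959 and 1618 CPM in unimmunized 1, unimmunized 2, immunized 1 and immunized 2, and Ms4a4c at 1833, 1931, 1911 and 1508 CPM. Conditions overlapped in both genes. Ms4a6b was at 1184, 1092, 1417 and 1145 CPM, and Ms4a6d at 462, 655, 870 and 801 CPM. The log2 differences from the other types were 2.96 ± 0.20 for Ms4a4c and 2.44 ± 0.20 for Ms4a6c. They were 2.13 ± 0.17 for Ms4a6b and 2.81 ± 0.23 for Ms4a6d (edgeR adjusted p of all 4 from 6.26e-15 to 2.05e-12). Each SE rests on the spread estimated over all 52 libraries, not on the 4 of this type alone. For none of these genes did the interferon-high type differ from classical monocyte-like cells, the next in order, past the threshold, with differences of 0.27 to 0.82 and adjusted p of 0.45 to 0.907. The interferon list, of genes that type I interferon induces and that were not used in the gate, had 19 of 19 tested genes higher in the same cells, with a median of 2.55 (log2) against 0.14 for all genes, which the gate on other interferon-induced genes largely fixed. In classical monocyte-like cells 13 of 19 were higher.

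They parted in other types. Ms4a4c was at 349 and 360 CPM in B cell-like cells of unimmunized mice and at 382 and 785 CPM in immunized mice, next below the C1q-high type in its order. The others were far lower there, with Ms4a6c at 37.5, 58.0, 108 and 380 CPM in the same order. The ratio of Ms4a4c to Ms4a6c UMIs was 2.07 to 9.31 in the 4 B cell-like libraries and at most 1.5 in the libraries of all other types, and B cell-like cells had the highest ratio of all types in 4 of 4 mice. At 1000 UMIs, 30.3% of B cell-like cells held a UMI of Ms4a4c, against 6.10% for Ms4a6c. The ratio of Ms4a6b to Ms4a6c, in turn, was 1.67 to 3.54 in αβ T cell-like cells and 1.27 to 13 in γδ T cell-like cells, and at most 1.39 elsewhere, with the 13 from a library of 10 cells. In monocyte-related types Ms4a6c exceeded both, and its share of the members' UMIs was 36.6% in classical monocyte-like cells. These ratios have no test of their own.

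**Figure D2:**
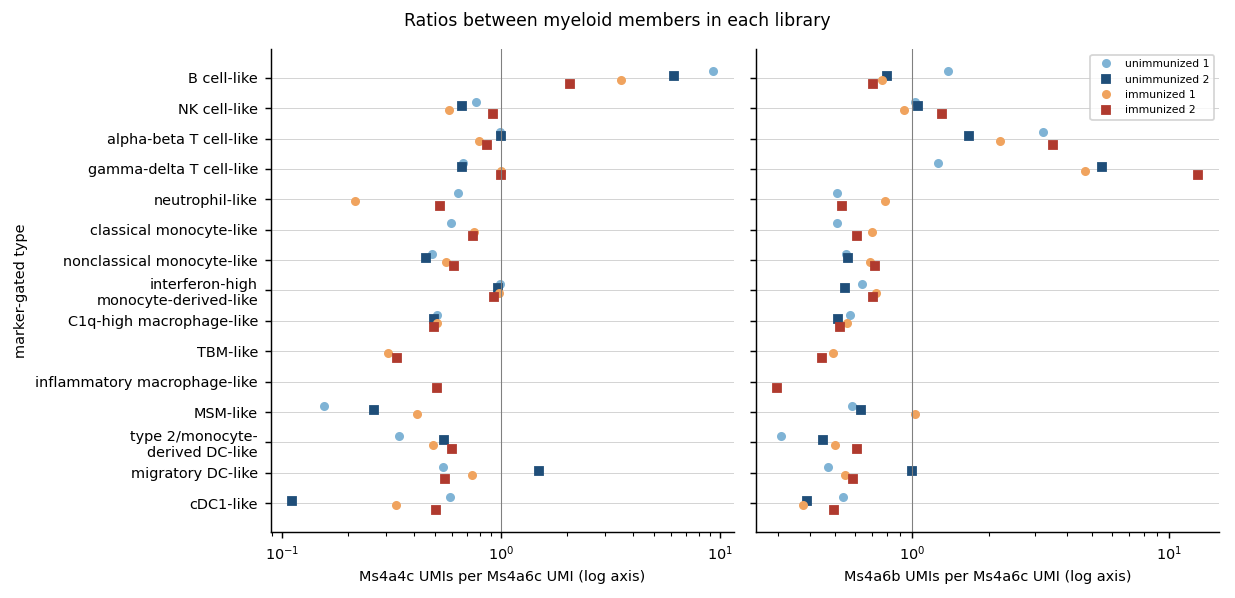
Ratio of Ms4a4c UMIs (left) and Ms4a6b UMIs (right) to Ms4a6c UMIs (log axes) in each library (color and shape mark the mouse), by gated type. The B cell-like libraries lie to the right in the left panel (2.07 to 9.31) and the T cell-like libraries in the right panel (from 1.27).

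Ms4a7 was highest in TBM-like cells. In these cells, which reached 10 cells only in the immunized mice, it was at 576 and 205 CPM, and it was the highest type in both. The second mouse was well below the first. Within the immunized mice TBM-like cells exceeded the other types by 4.44 ± 0.34 (log2, SE, edgeR adjusted p = 1.92e-12). They exceeded C1q-high macrophage-like cells by 2.17 ± 0.46 (edgeR adjusted p = 0.0183, where 0.267% of genes were called). These SEs and p-values rest on the spread estimated over all 52 libraries, and do not measure the spread between the 2 TBM-like libraries. C1q-high cells were at 108, 136, 122 and 40.8 CPM in unimmunized 1, unimmunized 2, immunized 1 and immunized 2 and were called higher than the others by 2.65 ± 0.39. Interferon-high cells were at 111 and 152 CPM in unimmunized and 51.7 and 42.7 CPM in immunized mice, with the immunized mice lower and apart, as were 21.3% of all pairs of a gene and a type. Medullary sinus macrophage (MSM)-like cells, of low depth (median 1929 UMIs), held 57.5, 89.2 and 74.2 CPM in the first 3 mice. The order of the means was TBM-like (immunized mice only), C1q-high, interferon-high, MSM-like. The steps from C1q-high to interferon-high and on to MSM-like cells were not called. Within a mouse the order differed. Interferon-high cells were above C1q-high cells in both unimmunized mice and in immunized mouse 2. MSM-like cells were above interferon-high cells in immunized mouse 1. Ms4a7 was also called higher in migratory DC-like cells (1.47 ± 0.42) and nonclassical monocyte-like cells (1.29 ± 0.40). The migratory DC-like libraries were far apart within each condition, at 59.5 and 0 CPM in unimmunized and 14.4 and 61.3 CPM in immunized mice. The 1 library of inflammatory macrophage-like cells, from immunized mouse 2, held 16.5 CPM, below the mean of classical (34.4 CPM) and nonclassical monocyte-like cells (41.6 CPM). At 1000 UMIs 28.2% of TBM-like cells held a UMI, against 1.11% of B cell-like cells.

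Ms4a7 was higher the more TBM markers were detected, among cells with at least 3 of the 4 C1q markers. In immunized mouse 1 it was 61.4, 112, 184, 302.1 and 621 CPM in cells with 0, 1, 2, 3 and 4 to 8 of these markers, and in immunized mouse 2 it was 29.2, 46.4, 96.1, 144 and 289 CPM. In both mice each bin was above the one before. Cell depth was also higher over most of these steps: median UMIs were 10983, 9231, 10801, 12276 and 14065 in the first, and 14172, 15104, 15677, 16196 and 15794 in the second. Unimmunized mouse 1, with 51.3, 99.3 and 104.5 CPM at 0, 1 and 2 markers, and unimmunized mouse 2, with 52.6, 88.8 and 151 CPM, had fewer than 10 cells in each bin beyond. The bins were chosen after the values were seen, and neither they nor the part of depth in them was tested.

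**Figure D3:**
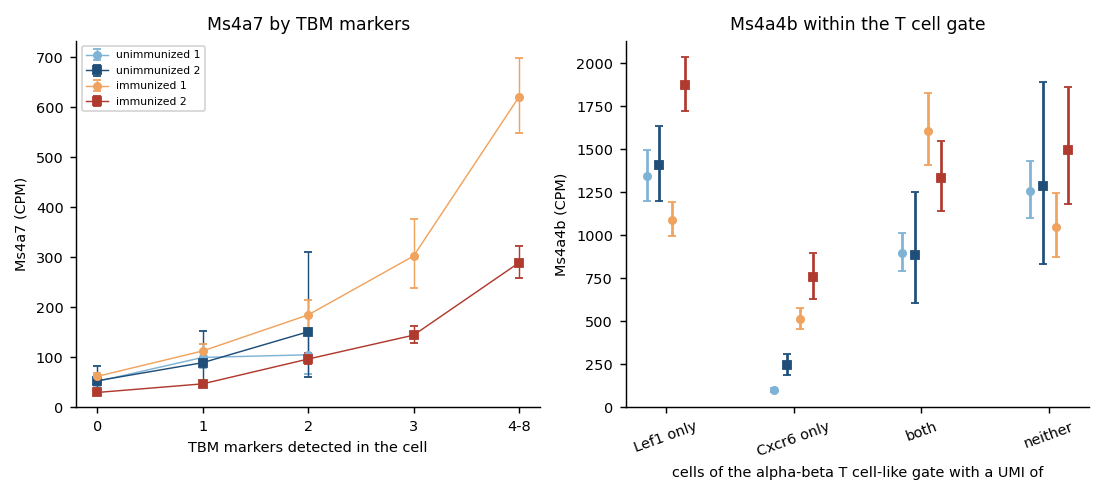
Left: Ms4a7 (CPM) in cells with at least 3 C1q markers, by the number of TBM markers detected, per mouse. Right: Ms4a4b (CPM) in αβ T cell-like cells split by a UMI of Lef1 or Cxcr6; error bars in both panels are 95% Poisson intervals, covering counting error only. Ms4a7 goes from 61.4 to 621 CPM in immunized mouse 1, and Ms4a4b is lowest in cells with Cxcr6 only.

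Of the other Ms4a symbols, Ms4a8a was highest in MSM-like cells (66.8 ± 25.6 CPM, n = 3; 4.74 ± 0.69 log2 above the other types, adjusted p = 2.29e-06). Of the genes that flank the cluster on chromosome 19, 13 of 14 were tested, and 5 were higher in interferon-high cells, where 16.1% of all genes were. The number was 6 in type 2/monocyte-derived DC-like cells and 5 each in classical monocyte-like and γδ T cell-like cells, so it was not particular to the interferon-high type. Those higher in interferon-high cells included Mpeg1, encoding the pore-forming protein perforin-2, at 1.85 ± 0.18 and Slc15a3, a lysosomal peptide transporter, at 2.21 ± 0.25. Of 9 genes for known partners or neighbours in function of MS4A proteins, such as the receptor adaptors Tyrobp and Fcer1g, 7 were tested, and 4 were higher and 1 lower in interferon-high cells (16.1% and 1.92% of all genes), as also in C1q-high, classical and nonclassical monocyte-like cells. Trem2, a lipid receptor of macrophages, was higher in TBM-like cells by 4.68 ± 0.41.

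Across the 52 libraries, the genes most alike in pattern to each member (Pearson's r of log2 CPM; the libraries of a mouse are not independent and differ in depth) were Ebf1 and Pax5 for Ms4a1 (0.919 and 0.911) and Cd160, Gm2682 and Gm19585 for Ms4a4b (0.850 to 0.877). For Ms4a4c they were Ifi27l2a, Plac8 and Oas2 (0.869 to 0.906), for Ms4a6b Fyb, Oas1a and Ifitm3 (0.855 to 0.857), and for Ms4a6c Clec4a3, Sirpb1c and Ifitm3 (0.954 to 0.962). Ms4a6d was most like Ly6i, Ms4a6c and Klra2 (0.921 to 0.932), Ms4a7 most like Clec4a2, Lst1 and Csf1r (0.845 to 0.854), and Ms4a4a most like Pparg, Zfyve9 and Tmem51os1 (0.789 to 0.8). Among the members themselves r was highest between Ms4a6c and Ms4a6d, at 0.921, while Ms4a4b and Ms4a4c, whose promoters share runs, reached 0.0577 and Ms4a6b and Ms4a6c 0.845. Ebf1 and Pax5 are among the gate markers that chose the B cell-like cells.

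Immunization was compared within each of the 10 types with libraries from all 4 mice, as immunized minus unimmunized. Of 80 tests of the members 2 were called (edgeR's quasi-likelihood test, adjusted over 11225 genes), against 0.201% of all gene tests, and 21 had an unadjusted p under 0.05. Both calls were in migratory DC-like cells, where 0.312% of all genes were called higher and 0.196% lower. Ms4a6b was at 63.9 and 15.2 CPM in the unimmunized and 131 and 271 CPM in the immunized mice there. The immunized libraries were both above, and the difference was 1.98 ± 0.48 (log2, SE; adjusted p = 0.0443). The monocyte marker sums moved with it: the 6 markers of classical monocytes summed to 227 and 30.4 CPM in the unimmunized and 256 and 402 CPM in the immunized libraries, and their part in the difference was not tested. The unimmunized 2 library held 13 cells. Without unimmunized mouse 1, unimmunized mouse 2 or immunized mouse 2 the difference was no longer called (3.87, 1.61 and 1.32), and neither was it in either capture alone, with stricter gates, in Leiden clusters or with at least 20 cells a library (0.98 to 1.75). Ms4a1 fell by 3.92 in these cells (adjusted p = 0.0223), from the 25 UMIs of unimmunized mouse 1 described above, and without that mouse the sign reversed to 4.15. The B cell gene Cd79a was called lower in the same libraries (−3.64 ± 0.61).

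Ms4a6d had the most uniform difference between the conditions, though no test of it was called in the fit with the filter on low counts and all 4 mice. Without the filter edgeR called 7 types, in a fit that called 0.758% of the tests of all genes. DESeq2 called 1, B cell-like cells, and 0.478% of the tests of all genes. Both immunized libraries were above both unimmunized ones in 8 of 10 types, where 16.3% of all pairs of a gene and a type were apart in that direction. Of all 11225 genes, 0.535% were higher and apart in at least as many types. In nonclassical monocyte-like cells it was at 313 and 300 CPM in unimmunized and 542 and 654 CPM in immunized mice, and in C1q-high cells at 232 and 230 against 417 and 423 CPM. In αβ T cell-like cells it was at 34.2 and 53.8 against 106 and 138 CPM. In these 3 types the mice of a condition were near each other and the conditions apart. In cDC1-like cells immunized mouse 1 exceeded unimmunized mouse 1 by less than 0.01 CPM, so that type is only nominally apart. In type 2/monocyte-derived DC-like cells unimmunized mouse 2, at 96.05 CPM from 17 UMIs, and immunized mouse 1, at 104.4 CPM, had overlapping counting intervals. The unimmunized mouse 2 libraries of B cell-like and of migratory DC-like cells held 1 UMI each. The immunized B cell-like libraries were far from each other, at 36.3 and 248 CPM. NK cell-like cells overlapped, and γδ T cell-like cells went the other way. The γδ T cell-like libraries held 113 and 3 UMIs in the unimmunized mice. They held 1 and 0 UMIs in the immunized mice, from 25 and 10 cells. The fitted differences in the 8 types were 0.72 to 3.35, with unadjusted p under 0.05 in 6 of them and adjusted p from 0.136 to 0.834. The classical monocyte markers summed to 533 and 657 CPM in αβ T cell-like cells of unimmunized mice and to 643 and 469 CPM in immunized mice. In B cell-like cells they summed to 86.6 and 34.8 against 166 and 493 CPM. Which cells these marker counts came from was not examined, so the sums do not measure monocyte RNA in either type. Their part in the differences of Ms4a6d was not tested.

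**Figure D4:**
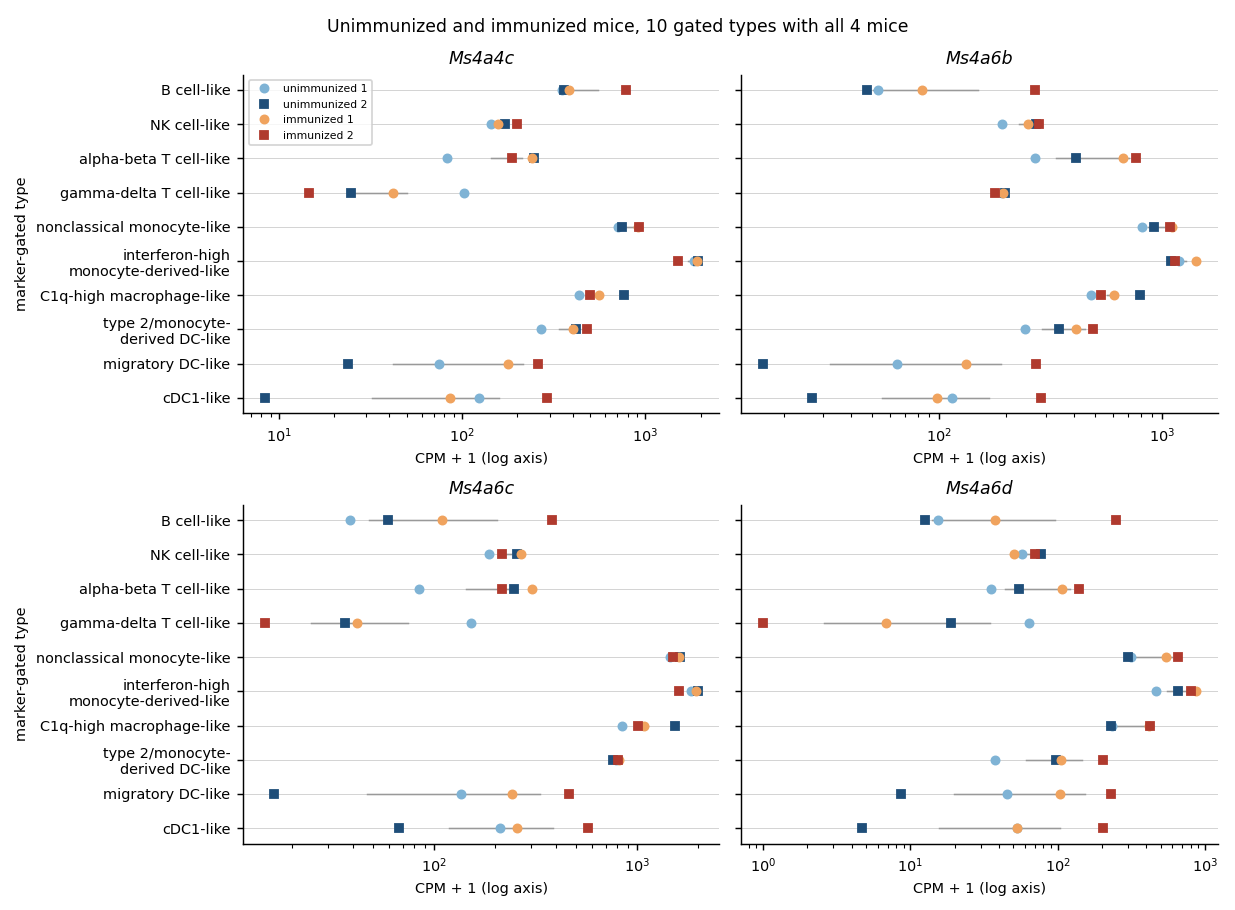
CPM + 1 (log axis) of Ms4a4c, Ms4a6b, Ms4a6c and Ms4a6d in the 10 types with libraries of all 4 mice; blue points are unimmunized and orange and red immunized mice, and the grey line joins the geometric means of the conditions. Ms4a6d lies to the right in immunized mice in 8 of 10 types.

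Averaged over the 10 types with equal weight, Ms4a6d was 6.21 and 5.63 log2 CPM in the unimmunized and 6.79 and 7.26 log2 CPM in the immunized mice. Ms4a4c, Ms4a6b and Ms4a6c were also higher in both immunized mice, by 0.67, 0.92 and 0.70, where 27.9% of all genes were higher and apart. Ms4a1 was lower and apart, by 0.50, as were 11.5% of genes. This equal-weight mean is set mostly by types with few or no UMIs of Ms4a1. In B cell-like cells, which held almost all of them, its fitted difference was -0.045 ± 0.31 and the conditions overlapped. Ms4a4a, Ms4a4b and Ms4a7 overlapped. An exact permutation test of 2 against 2 mice cannot go below a two-sided p of 0.333.

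In αβ T cell-like cells Ms4a4b differed by 1.41 ± 0.40 (the values above, apart in the 2 conditions; adjusted p = 0.12). It was called in Leiden clusters (1.71), without the highest Scrublet scores (1.71), in capture 1 (1.47) and without the filter (1.38). Without immunized mouse 1 the difference was 1.76. With the mouse as a replicate block it was called, at 1.54 (edgeR adjusted p = 0.0163). That block sets the contrast at mouse 1 of each condition and takes a shift of mouse 2 shared over the types out of the spread. Its p-value therefore does not measure the spread between mice and adds no support. Cells with Cxcr6 alone made up 299 of 420 and 47 of 72 cells of the gate in the unimmunized and 66 of 156 and 21 of 84 cells in the immunized mice, and the part of this makeup in the difference was not tested. Among cells with Lef1 and no Cxcr6 the conditions overlapped, while among cells with Cxcr6 and no Lef1 both immunized mice were above both unimmunized ones (the values above). In NK cell-like cells Ms4a4b differed by 0.49 ± 0.39. Ms4a7 was lower in interferon-high cells of the immunized mice by 1.31 ± 0.52 (the values above; adjusted p = 0.32) and higher in cDC1-like cells (7.27 and 0 against 14.0 and 46.3 CPM; adjusted p = 0.66).

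Whether the change after immunization differed between types was tested with the interaction of type and condition. No member was called by edgeR with the filter and all 4 mice, or by DESeq2. The edgeR test called 7 without the filter and 5 without immunized mouse 1, and the share of all genes in those fits is not given here. With the filter and all mice 4 members had an unadjusted p under 0.05. The smallest edgeR adjusted p was 0.618, for Ms4a6c, while 0.143% of all genes were called. In simulated libraries of this design, with a dispersion of 0.1, 16% of genes changed 4-fold were called in C1q-high cells for immunization. For the type contrast in B cell-like cells 66% were called. The interaction test recovered 0% of genes changed 4-fold only in C1q-high cells of the immunized mice. The common dispersion fitted to the real libraries was lower, at 0.0308. These shares therefore do not give the power of the tests here, and the lack of interaction calls was not read further.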

How the data were processed

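The authors sequenced 2 captures of 4 hashtagged mice and deposited UMI counts, made with Cell Ranger 4.0.0 and mm10 per the submitters' processing notes, with antibody and hashtag counts from CITE-seq-count. For the merging of the captures, the sources used here do not say whether depth was equalized. Barcodes with a sequence found in both captures (1242) and cells with over 25% mitochondrial UMIs were left out. A mouse was assigned where 1 hashtag held at least 80% of hashtag counts and at least 10 counts. Cells were gated by mean z-scored marker levels (at least 3 markers detected), and 2365 cells lay near a cut. Doublets within a mouse were kept, apart from the Scrublet alternative.

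Counts were summed per mouse and type (at least 10 cells) and fitted together with edgeR 4.0.16 (R 4.3.3, TMM, filterByExpr), without a block. The SEs and p-values of this fit rest on 1 spread estimated over all 52 libraries, with 24 residual degrees of freedom. Libraries of 1 mouse entered it as if independent. Adjusted p under 0.05 was called. In type contrasts the animal is shared, so its libraries are paired by mouse. The difference between the 2 mice of a condition correlated across genes between types with a median r of 0.0342 (unimmunized) and 0.0759 (immunized). The highest r was 0.148 and 0.45. It was over 0.1 in 2 of 55 pairs of types in the unimmunized and 28 of 78 in the immunized mice. The fit was tested on simulated data. Alternatives used DESeq2 1.42.0, HTODemux of Seurat 5.3.0, Leiden clusters of scanpy 1.11.5 and 13 others. Thinning to 1000 UMIs left out 11 cells. The members, lists, gates and TBM contrast were chosen with earlier results of these data known. All 8 members were named, with the 3 genes most like each, of which 1 is not reported here. Poisson intervals are 95% and cover counting error only.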

Additional observations from a re-analysis of the deposited data

How the results depend on the processing

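The level of each member in its highest type kept its direction and its call under every one of the 17 alternatives that gave a value. The main fit gave 56 type calls in 104 tests of the members, where 21.4% of the tests of all genes were called. The other alternatives gave from 43 (capture 1, 16.4% of all gene tests) to 64 (without the filter, 12.6%). Leaving out a mouse gave from 33 (without unimmunized mouse 1, 12.5%) to 60 (without immunized mouse 2, 20.3%). None of the retained calls changed sign. The number of member tests ran from 84 to 112, so these counts are not on 1 scale. Calls for immunization were less stable than the 2 of the main fit, where 0.201% of the tests of all genes were called. There were 20 without the filter (0.758% of all gene tests), 5 with the DESeq2 test (0.478%) and 8 with HTODemux (0.243%). The stricter hashtag rule gave 7 (0.288%), and removal of the highest Scrublet scores gave 5 (0.237%). Stricter gates gave 1 (0.162%), at least 20 cells per library 0 (0.118%) and capture 2 gave 0 (0.0651%). The replicate block gave 3 (0.468%) and changed no other immunization call than Ms4a4b in αβ T cell-like cells. It gave 58 type calls (23% of all gene tests). Interaction calls, 0 otherwise, were 7 without the filter and 0 to 5 with a mouse left out. The share of all genes called in those interaction fits is not given here. Ms4a6d was higher in 8 or 9 types throughout, and called in 7 of them without the filter. The fall of Ms4a1 in migratory DC-like cells reversed to 1.02 with HTODemux, 0.51 with the stricter hashtag rule, 0.47 without the highest Scrublet scores and 3.89 in capture 2, and its value with a mouse left out ran from −7.98 to 4.15; its type difference there was −0.98 in capture 2 and −1.20 to 2.76 with a mouse left out. The causes were not tested. DESeq2 size factors moved the median of all genes by 0.104 in C1q-high cells for immunization and by −0.109 in neutrophil-like cells for the type contrast.

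Detection rose with depth: without thinning and at 2000 UMIs the shares in the highest types were 98.3% and 86.3% for Ms4a1, 15.4% and 4.32% for Ms4a4a, 100% and 93.5% for Ms4a4b, 95.8% and 88.2% for Ms4a4c, 96.0% and 84.4% for Ms4a6b, 95.8% and 93.2% for Ms4a6c, 89.6% and 64.6% for Ms4a6d, and 76.4% and 37.5% for Ms4a7. With 2 mice per condition and 537 cells in unimmunized mouse 2, small differences were not detectable. Free RNA, which cells of pooled captures can share, was not measured.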
